A study of Mus musculus with 6 samples.

Results

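The flavin-containing monooxygenases Fmo1, Fmo2, Fmo4 and Fmo5 were followed in the eWAT of cachectic and control mice, the white fat pad attached to the epididymis. They were found as the 4 rows carrying these names among the 54532 genes of the count table. The family was chosen on the measured values of this same comparison, because Fmo5 was among the genes whose change was most even between mice, so its levels and fold changes are given as a description without a test. The control group was 3 male C57BL/6 mice and the cachexia group was 3 male C57BL/6 mice inoculated under the skin with LLC cells, a line grown from a Lewis lung carcinoma of the mouse, all aged 6 to 10 weeks. Tissue was taken on day 21. Bulk RNA of whole fat pads was sequenced, so more cells of a type and more RNA per cell cannot be told apart.

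Flavin-containing monooxygenases are enzymes of the endoplasmic reticulum that bind FAD, take electrons from NADPH and place 1 oxygen atom of O2 on nitrogen, sulfur or, for FMO5, carbonyl-containing compounds. With cytochrome P450s they form the oxidative arm of drug and toxin metabolism, and they also act on the body's own metabolites, as where FMO1 makes taurine from hypotaurine. Fmo5 is known as a regulator of metabolic ageing and body fat in mice. Fmo2 is best known in lung, and Fmo4 is the least characterized of the 4.

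Read counts were scaled to CPM, the count divided by the library's TMM-normalized size,. The libraries held 14928766 to 18855546 counted reads, and 16003 genes had enough counts to be tested, all 4 members among them, the lowest member count being 26. Between cachectic and control mice, edgeR's quasi-likelihood test with Benjamini-Hochberg adjustment called 17.6% of all tested genes in either direction at an adjusted p under 0.05, 1440 higher and 1381 lower, and in 40.5% of tested genes the CPM of the 2 groups did not overlap. One library stood apart. Control replicate 1 lay at 47.2 on the second principal component, against -28.8 and -23.3 for the other control mice, and held RNA of epithelial genes that were near 0 in the other 5 mice. Hnf4a, a transcription factor of epithelia, had 26.8 CPM there and at most 0.328 elsewhere. Foxj1, the master regulator of motile cilia, had 55.3 CPM against at most 0.525. Epcam, an epithelial adhesion molecule, had 46.9 against at most 0.721, and Cdh16, a cadherin of tubular epithelia, had 56.1 against at most 0.175. The last 3 genes were chosen after their values were seen. The part of this library in each result was not tested, and values without it are given beside those of Fmo1 and the lists that moved without it.

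Fmo5 lies alone on chromosome 3 (chr3:97628804-97655282, plus strand), and Fmo4, Fmo1 and Fmo2 lie side by side on the minus strand of chromosome 1, at chr1:162793188-162813972, chr1:162829561-162866610 and chr1:162874317-162898726. These are the coordinates of the deposited files, which are those of GENCODE M21 on GRCm38 for each of the members. The gap is 15.59 kb between Fmo4 and Fmo1 and 7.706 kb between Fmo1 and Fmo2. Fmo6 lies 17.82 kb beyond Fmo2 on the same strand. None of the 4 members overlaps another gene in the table. The sequences before the starts of Fmo5 and Fmo2, both higher in cachexia, are shown as a description. That of Fmo4, also higher, is not shown, and a shared control of these genes was not tested. The sequences shown were read from RefSeq on GRCm38.p6 without bases that are exonic in GENCODE. This leaves chr3:97628769-97628803 (plus strand) for Fmo5 and chr1:162898759-162899008 (minus strand) for Fmo2. Capitals mark CG dinucleotides.
Fmo5: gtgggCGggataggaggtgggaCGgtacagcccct
Fmo2: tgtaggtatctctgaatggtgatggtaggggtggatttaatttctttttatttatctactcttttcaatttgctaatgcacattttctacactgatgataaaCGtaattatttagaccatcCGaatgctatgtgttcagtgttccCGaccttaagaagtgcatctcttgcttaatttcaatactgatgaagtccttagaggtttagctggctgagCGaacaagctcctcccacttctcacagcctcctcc
Over the whole 250 bases before the RefSeq start, Fmo5 held 9 CG dinucleotides and 56% G or C, Fmo2 held 4 and 39.6%, and the median of all 32851 windows of this length was 6 and 52.4%. None of 4 short motifs searched on both strands stood in either window. They were AGAACA (glucocorticoid receptor half-site), TTCNNNGAA (STAT), TGANTCA (AP-1) and GCGTG (aryl hydrocarbon receptor core), which occurred in 16.1%, 7.02%, 6.75% and 28.2% of all windows. The window before a second, downstream RefSeq start of Fmo2 held 1 AGAACA. The window of Fmo4 held none of the 4 motifs, and Fmo1 was not searched.

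Fmo5, which in the test tube inserts oxygen into ketones and aldehydes rather than onto nitrogen, had the largest fold difference of the 4. Its counts were 698, 574 and 602 in the control mice and 1782, 1869 and 1798 in the cachectic mice, in the order of their replicate numbers, which is kept below. After scaling, control mice had 35.0, 32.9 and 34.1 CPM and cachectic mice had 104, 115 and 118 CPM. The values within each group lay close together, and the lowest cachectic mouse was 2.968 times the highest control mouse. The mean was 34.0 ± 1.06 CPM (SD, n = 3) in control and 112 ± 7.33 CPM (SD, n = 3) in cachectic eWAT, a coefficient of variation of 3.13% and 6.53%. The fold was 3.298, a log2 fold change of 1.72 (SE 0.12). Among all 16003 tested genes Fmo5 stood at rank 8 by p, which is the property it was chosen for. Its log2 fold change lay between 1.69 and 1.77 whichever mouse was left out.

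Fmo2 was expressed at a higher level and was also higher in cachexia. Control mice had 222, 215 and 182 CPM, and cachectic mice had 323, 484 and 351 CPM. The groups did not overlap, with cachexia replicate 2 the highest of the 6 mice, and the lowest cachectic mouse was 1.456 times the highest control mouse. Means were 206 ± 21.5 and 386 ± 86.1 CPM (SD, n = 3 each), a fold of 1.872 and a log2 fold change of 0.90 (SE 0.19). Cachectic mice varied more among themselves for this gene than for Fmo5, with coefficients of variation of 22.3% against 6.53%.

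Fmo4 was rare in eWAT. It had 33, 26 and 31 counts in control mice and 42, 86 and 71 counts in cachectic mice, which is 1.66, 1.49 and 1.76 CPM against 2.45, 5.28 and 4.65 CPM. Each cachectic mouse lay above each control mouse, but cachexia replicate 1 stood nearer to the control mice than to the other 2 cachectic mice. Means were 1.63 ± 0.134 and 4.13 ± 1.49 CPM (SD, n = 3 each), a fold of 2.518 and a log2 fold change of 1.33 (SE 0.37).

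Fmo1, the family member that makes taurine, was abundant and had nearly the same mean in both groups. Control mice had 200, 314 and 318 CPM and cachectic mice had 323, 314 and 232 CPM. The ranges overlapped, with control replicate 1 lowest and cachexia replicate 3 next. Means were 277 ± 67.4 and 290 ± 50.2 CPM (SD, n = 3 each), and the log2 fold change was 0.06 (SE 0.23). Without control replicate 1 the control mean was 316 CPM and the log2 fold change was -0.13. Between its neighbours Fmo4 and Fmo2, both higher in cachexia, Fmo1 thus differed by less than the spread between mice.

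**Figure D1:**
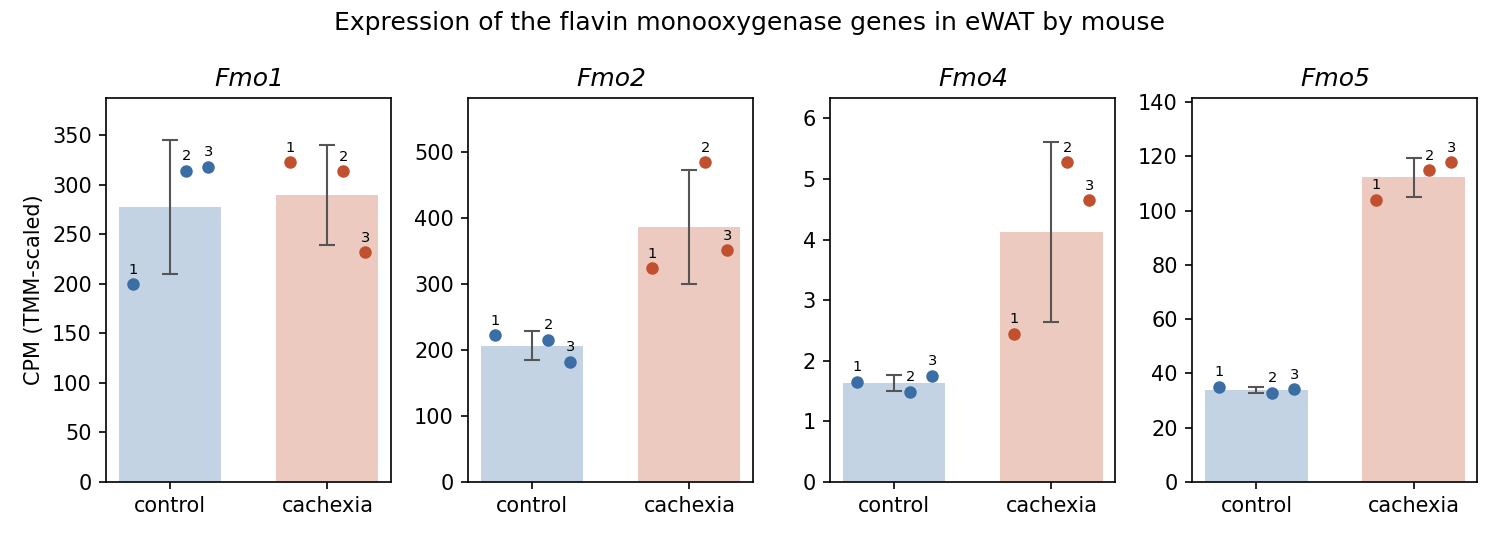
CPM of each gene (vertical axis, starting at 0, TMM-scaled) in control and cachectic mice. Points are single mice labelled by replicate number, bars are group means and error bars are SD (n = 3). Fmo5 shows 3 cachectic mice between 104 and 118 CPM above 3 control mice between 32.9 and 35.0 CPM, and the Fmo1 groups overlap.

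In the fit across all genes, Fmo2, Fmo4 and Fmo5, 3 of the 4 members, passed an adjusted p of 0.05, all of them higher, beside the 17.6% of all genes tested that passed in either direction. Nothing is read from this count, since the members were picked on the comparison. Fmo2 did not pass without control replicate 2 or 3, and Fmo4 did not pass without any 1 of the control mice or without cachexia replicate 2 or 3. With all mice kept, Fmo4 also did not pass without a filter on low counts, by limma-voom, in both fits on log2 FPKM or with the replicate block. With 1 mouse left out, the log2 fold change was 0.71 to 1.02 for Fmo2 and 1.12 to 1.60 for Fmo4.

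**Figure D2:**
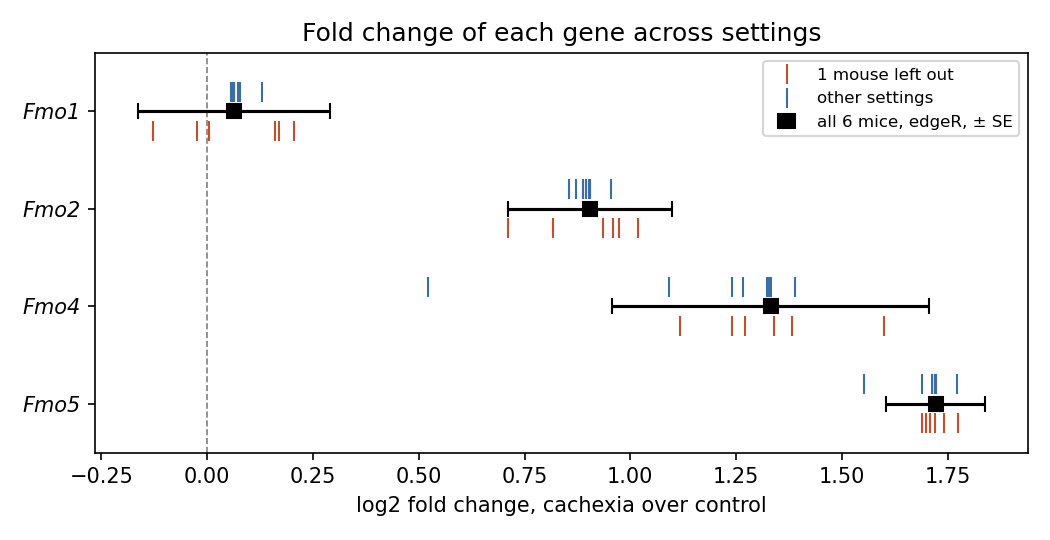
Log2 fold change of cachexia over control (horizontal axis) for the 4 genes. Black squares with bars are the edgeR estimate ± SE from all 6 mice, red ticks are fits with 1 mouse left out and blue ticks are other settings of normalization, filter, tool or unit. Fmo5 stays between 1.55 and 1.77, Fmo1 scatters on both sides of 0, and the single low tick of Fmo4 at 0.52 is the fit on log2(FPKM + 1).

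Fmo6 had 6, 0 and 0 counts in control mice and 7, 8 and 8 in cachectic mice, too few to be tested, and the 6 were in control replicate 1, the library with the epithelial genes. Fmo9 had no count in any mouse, where a count of 0 allows up to 0.151 to 0.197 CPM depending on the library. Of the 50-base stretches of the members, 7.02% in Fmo1, 0.434% in Fmo5 and none in Fmo2 and Fmo4 occur in a transcript of another gene, and none of the shared ones belongs to another Fmo gene.

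Levels between genes were compared per kb of the gene length given in the files. In control eWAT, the means of Fmo1 (44.0 ± 10.7 CPM per kb) and Fmo2 (36.8 ± 3.84) did not differ beyond their spread, Fmo5 followed at 5.99 ± 0.188 and Fmo4 was last at 0.441 ± 0.0363 (SD, n = 3). By mouse, Fmo1 had 31.7, 49.8 and 50.5 CPM per kb and Fmo2 had 39.6, 38.3 and 32.4. Fmo1 was thus the lower of the pair in control replicate 1 alone, and above Fmo2 in the other control mice. In cachectic eWAT the order was Fmo2 (68.9 ± 15.4 CPM per kb), Fmo1 (46.0 ± 7.97), Fmo5 (19.8 ± 1.29) and Fmo4 (1.11 ± 0.401). In these levels per kb, ranked among the 16003 tested genes, Fmo5 stood at 6908 in control and 2569 in cachectic mice, Fmo2 at 1282 and 644, Fmo1 at 1051 and 1030, and Fmo4 at 14376 and 12369.

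Fmo1, Fmo2, Fmo4 and Fmo5 summed to 77.8, 94.4 and 89.4 CPM per kb in control mice and 127.9, 157.8 and 121.4 CPM per kb in cachectic mice. The sum was higher in each cachectic mouse, 135.7 ± 19.4 against 87.2 ± 8.48 (SD, n = 3). Of this sum, Fmo1 made up 49.99 ± 8.28% in control and 34.0 ± 5.32% in cachectic mice, and Fmo2 made up 42.6 ± 7.48% and 50.5 ± 4.91%. The groups overlapped for the share of Fmo2, with 50.8% in control replicate 1 and 45.1% in cachexia replicate 1. For Fmo1 they nearly met, with 40.67% and 40.08% in the same mice. The share of Fmo5 was 6.93 ± 0.910% in control and 14.8 ± 2.18% in cachectic mice. Fmo4 was a small part, with mean shares of 0.510 ± 0.0760% in control and 0.818 ± 0.269% in cachectic mice (SD, n = 3). Its groups overlapped, since control replicate 1 had 0.574% and cachexia replicate 1 had 0.517%.

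**Figure D3:**
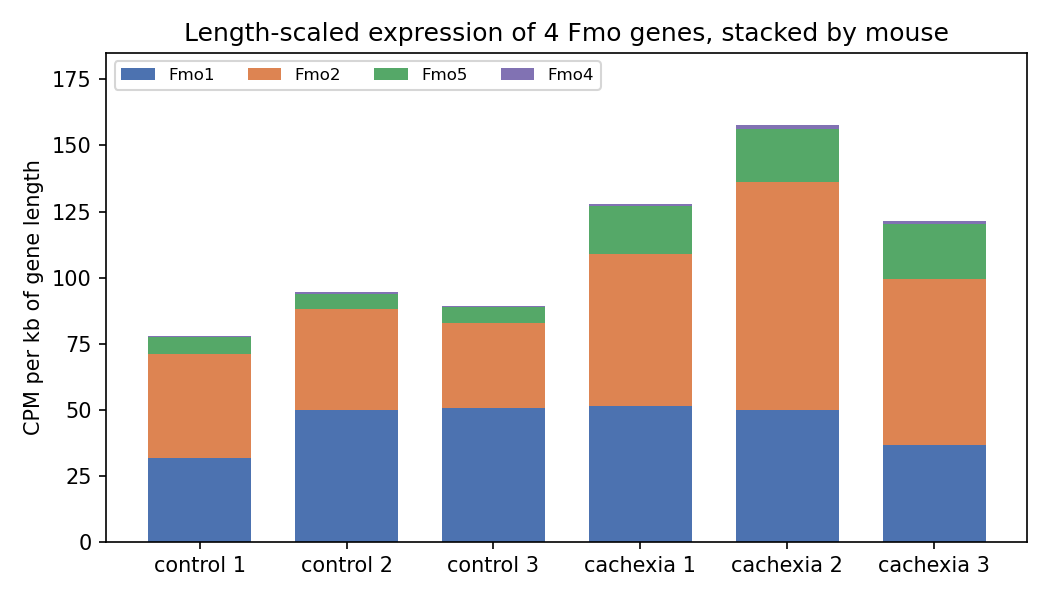
Stacked level of Fmo1, Fmo2, Fmo5 and Fmo4 in each mouse (vertical axis, CPM per kb of gene length). Fmo1 and Fmo2 fill most of each bar, the bars of the cachectic mice reach 121.4 to 157.8 against 77.8 to 94.4 in control mice, and the added height is mostly in the Fmo2 and Fmo5 segments.

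Ratios within a library do not depend on its scaling. Per kb, the ratio of Fmo5 to Fmo1 was 0.195, 0.116 and 0.119 in control mice and 0.357, 0.406 and 0.565 in cachectic mice, so that the mean ratio was 3.09 times higher in cachexia without overlap. Fmo5 to Fmo2 was 0.164 ± 0.0186 in control and 0.295 ± 0.0528 in cachexia (SD, n = 3), a fold of 1.79. Fmo2 to Fmo1 was 0.887 ± 0.321 in control and 1.52 ± 0.342 in cachexia (SD, n = 3), but here the groups overlapped, since control replicate 1 had 1.25 and cachexia replicate 1 had 1.13.

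To see what lay around the members, the 16 listed genes within 200 kb were examined, of which 7 could be tested. By edgeR's quasi-likelihood test with Benjamini-Hochberg adjustment, 2 of the 7 were higher and none lower (none at an unadjusted p under 0.05 either). This stands beside the 17.6% of all tested genes called in either direction, and nothing is read from so small a count. Prkab2, a subunit of AMP-activated protein kinase whose gene lies 2.911 kb from Fmo5, had 25.9 ± 2.49 CPM in control and 29.6 ± 3.75 CPM in cachexia (SD, n = 3), a log2 difference of 0.19 with an adjusted p of 0.404 in edgeR. On the other flank, Chd1l, a chromatin remodeller 18.6 kb from Fmo5, differed by 0.42 on the log2 scale with an edgeR adjusted p of 0.0893. Pde4dip, 34.54 kb away, differed by 0.23 with an edgeR adjusted p of 0.309. The antisense gene Gm31305 inside Pde4dip rose by 1.27 with an edgeR adjusted p of 0.0154, and without stated strand its reads cannot be told from those of Pde4dip. Near the chromosome 1 row, Vamp4, a SNARE protein of the trans-Golgi 194.1 kb from Fmo4, rose by 0.51 on the log2 scale with an edgeR adjusted p of 0.0295. Prrc2c (0.44, edgeR adjusted p 0.131) and the miRNA gene Gm27616 inside it (1.79, edgeR adjusted p 0.0938) did not pass. The call of Gm31305 was lost without control replicate 3 or cachexia replicate 1, and that of Vamp4 without any 1 of the control mice or without cachexia replicate 1 or 2. Vamp4 also lost it without a filter on low counts and with the replicate block.

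Genes whose log2 CPM had the highest Pearson r with each member over the 6 mice were named from 13723 protein-coding genes compared with it, as a description. This r leaves out the size of a change. Slc25a34 had a log2 fold change of 5.17 beside 0.90 for Fmo2. Madcam1 had 6.00, from 0.0736 to 5.12 CPM, and Impact had 0.36, beside 1.33 for Fmo4. For Fmo5 they were Rnf114, a ubiquitin ligase (Pearson r = 0.999), Smim19 (r = 0.998) and Pdk2, a kinase that inhibits pyruvate dehydrogenase (r = 0.997). For Fmo2 they were Lepr, the leptin receptor (r = 0.997), Notch4, a Notch receptor of endothelium (r = 0.995), and Slc25a34 (r = 0.994). For Fmo4 they were Madcam1, an endothelial adhesion molecule (r = 0.995), Impact (r = 0.993) and Rab40b (r = 0.993). For Fmo1 they were Dhdh (r = 0.991), Gfpt1, the entry enzyme of hexosamine synthesis (r = 0.987), and Pcdhga6 (r = 0.982). The 6 points share the group difference and their libraries, and ranks alone did not single these genes out. By Spearman rho, 123 genes tied at the top for Fmo5, 75 for Fmo2, 41 for Fmo4 and 9 for Fmo1. Of the 3 genes named for each, 1 was in the tie for Fmo5, 1 for Fmo2, 1 for Fmo4 and 0 for Fmo1.

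The enzymes that supply and surround the family were read from 6 lists of 109 genes, 95 of them tested, of which 24 passed, 13 higher and 11 lower, and 71 did not, beside the 17.6% of all genes. The median log2 fold change of all tested genes was -0.003. NADPH is the electron donor of every FMO. Of the 15 tested genes of the NADPH supply list, which holds NADPH-forming enzymes, NAD kinases and the enzymes beside them, 5 were lower and 1 higher in edgeR's quasi-likelihood test with Benjamini-Hochberg adjustment, with a median log2 fold change of -0.49. Pgd, the second NADPH-forming step of the pentose phosphate pathway, fell from 490 ± 51.0 to 153 ± 17.4 CPM (SD, n = 3 each; log2 -1.68, edgeR adjusted p 0.00164). Me1, malic enzyme, fell from 1067 ± 564 to 221 ± 41.3 CPM (SD, n = 3 each; log2 -2.27, edgeR adjusted p 0.00974), with control mice ranging from 538 to 1661. Idh1, cytosolic isocitrate dehydrogenase, fell by 1.65 on the log2 scale (edgeR adjusted p 0.00583), and Nadk2, the mitochondrial NAD kinase, rose by 0.57 (edgeR adjusted p 0.0300). G6pdx, the entry enzyme of the pentose phosphate pathway, differed by -0.42 with an edgeR adjusted p of 0.195, and it overlaps Ikbkg. Of the called list genes named here and below, Me1, Mthfd1, Mthfd2, Mgst2, Gsta3, Nqo2, Gsto1, Sult1a1, Gstz1, Ggt5, Ahr and Arnt overlap other genes. The strand setting is not given, so the overlap may affect their counts. The summed NADPH list was 3418 to 6036 CPM in control and 3101 to 3203 CPM in cachectic mice, the lowest control value being control replicate 1, without which the control mice had at least 5006 CPM. The lower count was 3 without control replicate 3, cachexia replicate 1 or cachexia replicate 2, and Nadk2 was the single higher gene. By DESeq2, 3 genes of this list were higher and 7 lower. DESeq2 also made more calls than edgeR outside the lists, with totals of 1955 against 1440 upward and 1929 against 1381 downward. Its counts for this and the later lists stand beside those totals, not beside the 17.6% of edgeR.

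The flavin cofactor list covers riboflavin uptake and the synthesis and transport of FAD. None of its 5 tested genes passed edgeR's adjusted threshold in either direction, 1 was higher at an unadjusted p under 0.05, 1 was higher by DESeq2 and none by limma-voom. 1 gene was also higher in edgeR without control replicate 1, without cachexia replicate 3, with plain library totals and without a filter. Its median log2 fold change was 0.23, and its summed level was 174 to 186 CPM in control and 202 to 240 CPM in cachectic mice.

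Cytochrome P450s and other phase I enzymes went in both directions, with 4 of 31 higher and 2 lower by edgeR and a median log2 fold change of -0.03. The higher count was 2 without control replicate 1, control replicate 3 or cachexia replicate 2 and 7 by DESeq2, and the lower count was 1 without control replicate 3, 4 with the replicate block and 3 by DESeq2. Cyp2d22, a P450 of the drug-metabolizing CYP2D group, rose from 62.4 ± 3.74 to 239.9 ± 76.1 CPM (SD, n = 3 each; log2 1.94, edgeR adjusted p 0.00356). Cyp4b1, a P450 of fatty acid and xenobiotic hydroxylation, rose by 1.49 (edgeR adjusted p 0.00356). Cyb5b, the outer mitochondrial membrane cytochrome b5, fell from 715 ± 117 to 172 ± 38.8 CPM (SD, n = 3 each; log2 -2.05, edgeR adjusted p 0.00250), and the carboxylesterase Ces2g fell by 1.18 (edgeR adjusted p 0.0195). Por, the reductase that passes electrons from NADPH to P450s and is not needed by FMOs, had 326 ± 42.1 and 387 ± 91.2 CPM (SD, n = 3 each; log2 0.25, edgeR adjusted p 0.458).

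Of the conjugating enzymes of phase II, 4 of 26 were higher and 4 lower by edgeR, with a median log2 fold change of -0.17. The lower count was 1 without control replicate 3, where 3 were higher, and 2 without control replicate 2 or cachexia replicate 3. The glutathione transferases Gstt2 and Mgst2 rose by 1.68 (edgeR adjusted p 0.00162) and 1.24 (edgeR adjusted p 0.0125) on the log2 scale. The glutathione transferase Gsta3 and the quinone reductase Nqo2 fell by 1.12 (edgeR adjusted p 0.00951) and 0.92 (edgeR adjusted p 0.00705). Gsta1 had no count in any mouse. The other called genes of these 3 lists, named after their values were seen, were Mthfd1 and Mthfd2 (lower), Cyp4f13 and Ephx2 (higher), Gsto1 and Sult1a1 (higher) and Gstt1 and Gstz1 (lower).

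On the taurine and cysteamine list, which adjoins the reaction of FMO1, 2 of 8 tested genes were higher by edgeR and none lower (1 at an unadjusted p under 0.05, 0 by DESeq2 and by limma-voom), with a median log2 fold change of 0.56. Vnn1, the pantetheinase that releases cysteamine, had 3.71 to 7.99 CPM in control and 19.1 to 149 CPM in cachectic mice (log2 3.66, edgeR adjusted p 0.0160). Ggt5, a gamma-glutamyl transferase, rose by 0.51 (edgeR adjusted p 0.0322). Among regulators of detoxification genes, 2 of 10 tested were higher by edgeR and none lower (none at an unadjusted p under 0.05, by DESeq2 or by limma-voom). They were Ahr, the aryl hydrocarbon receptor (log2 0.61, edgeR adjusted p 0.0421), and its partner Arnt (log2 0.64, edgeR adjusted p 0.0371). 1 gene of the taurine list was lower without cachexia replicate 3, and 1 regulator was lower without cachexia replicate 1. Nr3c1, the glucocorticoid receptor, differed by -0.57 with an edgeR adjusted p of 0.166, and Hnf4a, with its level in control replicate 1 alone, was not tested.

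Pgd, Me1, Idh1, Cyp2d22, Cyp4b1, Cyb5b, Gstt2, Mgst2 and Nqo2 passed in the 16 other settings as well. Of those named above from the lists, Nadk2, Ahr, Arnt and Ggt5 each lost the call without any 1 of the control mice and with the replicate block. Nadk2 and Ahr also lost it without cachexia replicate 1 or 2, Arnt and Ggt5 without cachexia replicate 1 or 3, Ahr in both fits on log2 FPKM and Ggt5 on log2(FPKM + 1). Vnn1 lost it without control replicate 2 or 3. Gsta3 lost it without control replicate 3, and Ces2g without control replicate 3 or cachexia replicate 2 or 3. Without control replicate 3 the 6 lists held 5 higher and 5 lower genes in place of 13 and 11, without control replicate 2 they held 6 higher, and without control replicate 1 they held 8 higher.

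**Figure D4:**
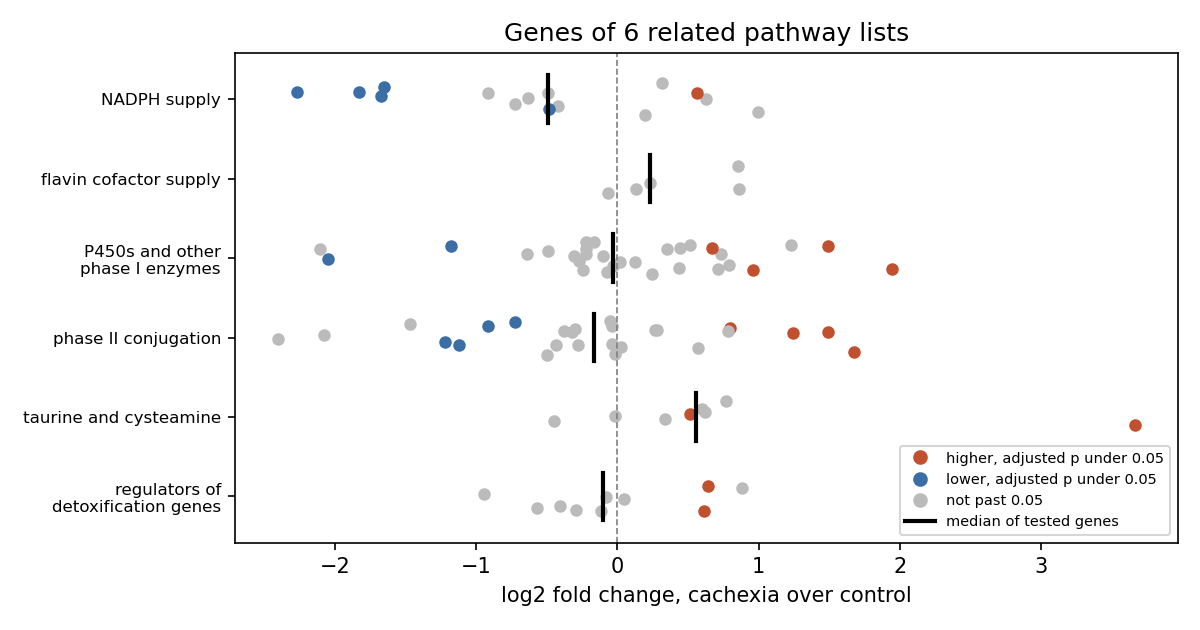
Log2 fold change of cachexia over control (horizontal axis) for the 95 tested genes of the 6 lists, 1 point a gene. Red points passed an adjusted p of 0.05 as higher, blue points as lower, grey points did not pass, and black bars are list medians, from -0.49 for NADPH supply to 0.56 for taurine and cysteamine.

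RNA of cell type markers in the pads, read from lists by the same edgeR calls, also differed between the groups in some lists. It does not tell more cells of a type from more RNA per cell. The summed adipocyte markers had 28430 to 36476 CPM in control and 30253 to 46791 CPM in cachectic mice, with 2 of 12 genes higher and 1 lower (1 and 0 without control replicate 1). Adipoq, the adipocyte hormone adiponectin, had a log2 fold change of 0.54 (edgeR adjusted p 0.305), and Plin1, a lipid droplet coat protein, had -1.44 (edgeR adjusted p 0.0570). Adipose progenitor and fibroblast markers summed to 5775 to 6563 CPM in control and 2664 to 3666 CPM in cachectic mice, with 1 of 12 higher and 5 lower, and Pdgfra, their receptor marker, had a log2 fold change of -0.75 (edgeR adjusted p 0.0518). The lower count of progenitor genes was 3 without control replicate 1, 2 without control replicate 2 or 3, and 3 without cachexia replicate 2 or 3. Endothelial markers summed to 1391 to 1515 CPM in control and 1880 to 3149 CPM in cachectic mice, with 2 of 8 higher by edgeR, 5 by DESeq2 and 5 at an unadjusted edgeR p under 0.05. Without control replicate 2 or 3 none of the endothelial genes passed, without cachexia replicate 1 or 2 1 did, and without cachexia replicate 3 5 did. The adipocyte calls were 0 higher without control replicate 2, control replicate 3 or cachexia replicate 1, 1 higher without cachexia replicate 2 or 3, and 0 lower without any 1 of the control mice.

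Neutrophil and erythroid markers were higher. Neutrophil markers summed to 12.0 to 15.5 CPM in control and 209 to 784 CPM in cachectic mice, with 8 of 9 tested genes higher (6 without control replicate 1, and 6 by DESeq2 and by limma-voom), among them S100a8, a neutrophil alarmin (log2 5.25, edgeR adjusted p 0.00276). All 6 erythroid genes were higher, with sums of 252 to 451 and 1333 to 2855 CPM. In smooth muscle and pericyte (1041 to 1332 and 527 to 856 CPM), macrophage (1286 to 1635 and 983 to 1480 CPM) and B and T cell markers (11.2 to 16.1 and 6.07 to 9.03 CPM), 1 gene each was lower. That call was lost without control replicate 2 or 3 in each of these lists, without cachexia replicate 2 or 3 for macrophages, and without any 1 of the 6 mice for B and T cells. Without cachexia replicate 3, 1 macrophage gene was called higher. Of the 7 mesothelial genes (317 to 418 and 190 to 417 CPM) none passed by edgeR, DESeq2 or limma-voom, with 1 lower at an unadjusted p under 0.05. In edgeR 1 was called higher without cachexia replicate 2, and 1 was called lower without cachexia replicate 3. The median log2 fold change of the 7 genes was -0.23, and that of Msln, mesothelin, was 0.62 (edgeR adjusted p 0.262). The 10 epididymal epithelium markers were too low to test, with sums of 1.42 to 5.57 CPM in control and 0.798 to 1.57 CPM in cachectic mice and Defb21 at 0 in every library. The part of these cell types in the levels of the 4 Fmo genes was not tested.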

How the data were processed

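Total RNA of eWAT from 3 cachectic and 3 control mice, grouped by their labels, was sequenced as paired-end reads. The authors cleaned the reads, mapped them by Hisat2 and obtained a count per gene from featureCounts (1.5.0-p3 in the processing notes), and these raw counts were deposited. They also deposited FPKM values, from counts and gene length, used here only in other settings. The strand setting is not given in the sources used here. The notes name mm9, while 98.3% of matched genes have their GENCODE M21 (GRCm38) coordinates. The authors' deposited table of DEGs holds DESeq2 1.16.1 log2 fold changes and p-values and was not used.

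The tool was edgeR 4.0.16 under R 4.3.3. Low genes were removed by filterByExpr, libraries were scaled by TMM, and the quasi-likelihood test had no covariates. P-values of 16003 genes were adjusted by Benjamini-Hochberg and called at 0.05. The SE is the absolute log2 fold change over the square root of F. P-values set the group difference against the spread between mice, which the test estimated for each gene with information shared over all genes. The common biological coefficient of variation over all genes was 0.264. The total count per sample, 14928766 to 18855546, limits the precision of rare genes, and the floor of 3 counts covers counting error only. No 2 libraries had near-identical counts. The scripts were tested on simulated data. Correlations used log2(CPM + 0.5).

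The members and lists were chosen with earlier results of these data known. Genes named are the members, Fmo6 and Fmo9, tested genes within 200 kb, the 3 genes most correlated with each member, up to 2 called genes per list and direction with the smallest p, and Por, G6pdx, Me1, Nr3c1, Hnf4a, Adipoq, Plin1, Pdgfra, Msln and S100a8. Genes said to be named after their values were seen fall outside this rule. An item that the rule covers is not reported here. Of 2 Nnt identifiers the one with more counts was used. Other settings were RLE factors, plain library totals, no filter, at least 10 counts in every sample, a newer quasi-likelihood form, DESeq2 1.42.0, limma-voom and limma 3.58.1 on log2(FPKM + 1) or log2(FPKM + 0.1), a replicate block, and each mouse left out. Sequences were read with Python 3.11.15.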

Additional observations from a re-analysis of the deposited data

How the results depend on the processing

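Settings were changed 1 at a time, and those with another tool or with FPKM change the scaling or unit with it. The log2 fold change of Fmo5 was 1.55 and that of Fmo4 was 0.52 on log2(FPKM + 1), where the added 1 is large beside a rare gene. Leaving out 1 mouse gave -0.13 to 0.20 for Fmo1, 0.71 to 1.02 for Fmo2, 1.12 to 1.60 for Fmo4 and 1.69 to 1.77 for Fmo5. The levels per kb of the 4 genes moved by less than 1 SD on the deposited FPKM. Genes called higher numbered 1440 with all mice, 1955 with DESeq2, 382 to 1197 with 1 mouse left out and 913 with the replicate block. Genes called lower numbered 1381 with all mice, 1929 with DESeq2 and 446 to 1142 with 1 mouse left out. The lowest counts came without control replicate 3 (382 and 446), followed by control replicate 2 (600 and 712). The 6 lists held 13 higher genes, 20 with DESeq2 and 5 to 13 with 1 mouse left out, and 11 lower genes, 5 to 10 with 1 mouse left out. Of the neighbours 2 were higher, 1 without a filter, 1 with the replicate block and 0 to 2 with 1 mouse left out. Fits with 1 mouse left out also hold fewer mice, and the cause of these differences was not tested. For 26 other genes followed through the settings, the neighbours and the list genes that the naming rule gives, 373 of 415 values kept their direction and their side of the threshold and 42 lost the call. The replicate numbers belong to different mice and shared no deviations (r = -0.003, -0.011 and 0.008 for the 3 pairs, no mouse closest to its own number), so the replicate block was not used to pair them. Depth limits Fmo4, with 26 to 86 counts a library, and Fmo6, with at most 8.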
